A study of Homo sapiens with 6 samples.

Results

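The polyadenylated 3′ ends of 9 genes of homologous recombination were examined in IMR-32 cells, a human neuroblastoma line: BRCA1, BARD1, PALB2, BRCA2, RAD51B, RAD51C, RAD51D, XRCC2 and XRCC3. Poly(A) 3′-seq peaks were taken as theirs when the summit lay in the GENCODE gene body or up to 4000 bp past its 3′ end, which gave 207 of the 200023 peaks of the list. The series held 6 libraries, with 2 from cells in the solvent DMSO, 2 from cells exposed for 2 h to THZ531 at 400 nM and 2 from cells exposed to the same dose for 6 h. This compound binds CDK12 and CDK13 covalently and blocks their kinase activity. Biological duplicates of 1 cell line were collected, and the peaks were called once on merged reads, taken here to be those of all 6 libraries. The study also made such libraries from other cells, and whether their reads entered the merge is not stated. The list therefore has no value for a single library, no replicate error and no strand, and treated cells could not be compared with DMSO cells.

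Homologous recombination repairs broken DNA by copying an intact sister strand. BRCA1 and its partner BARD1 form a ubiquitin ligase that acts early at the break, PALB2 joins BRCA1 to BRCA2, and BRCA2 prepares single-stranded DNA for strand exchange. RAD51B, RAD51C, RAD51D, XRCC2 and XRCC3 are related proteins that form complexes with each other and act beside BRCA2. An mRNA gets its 3′ end when the cleavage machinery reads a hexamer such as AATAAA and cuts a short way downstream of it. The same machinery can act at hexamers in introns, which yields a shortened transcript that lacks the exons further on. CDK12 phosphorylates RNA polymerase II, and genes of DNA repair are known for needing this kinase for their expression.

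The reads of the library kit start at the junction of transcript and poly(A) tail, so the 3′ edge of a peak marks a candidate cleavage site. The list also holds places where the primer could have met A-rich sequence inside a transcript. The height of a peak is given as reads at the summit, meaning the extended reads that overlap there, and it ran from 3 to 200 in the whole list. Repeated start positions appear to have been counted once, so a sharp end with many reads can be understated beside a wide one. The height is that in the pooled libraries and not a measure of how much mRNA a gene made. Of the genes that mark IMR-32 and like cells, 5 of 5 had a peak at a transcript end (HAND2, GATA3, TH, DBH and MYCN). Of 4 genes of other lineages, PTPRC, CD3E and KRT5 had none and EPCAM had 1, of 7 reads.

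With the study's own cutoff, −log10 q of at least 5, 152 of the 207 peaks remained, beside 72.2% of the peaks of all protein-coding genes. The weakest peak kept lay in BRCA2 at −log10 q of 5.07 with 10 reads, and the strongest one left out lay in RAD51C at 4.97 with 12 reads. All counts below use the peaks kept. Their heights ran from 7 to 66 reads with a median of 13, and the median over all protein-coding genes was 14.

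Every gene except RAD51B had a peak at the end of its canonical transcript, the reference isoform of the annotation. These 8 peaks held between 13 and 32 reads, and all 8 had at least 1 of the 12 polyadenylation hexamers in the 100 bases before the edge. The genomic sequence at these ends is given for 30 bases, in the direction of transcription and with the hexamers in capitals, because it shows the signal that the intronic places are read against. The coordinates are GRCh38 and the bases shown start at a hexamer and reach the 3′ edge, except at BRCA2, where they stop 2 bases short of it.
BRCA1 (− strand, chr17:43044291-43044320, 26 reads): AATAAActtggtagcaaacacttccaccat
BARD1 (− strand, chr2:214725635-214725664, 15 reads): AATAAAtattgagaagttgtcttcgtttaa
PALB2 (− strand, chr16:23603157-23603186, 17 reads): AATAAAtatttatttttatacattctgctt
BRCA2 (+ strand, chr13:32400247-32400276, 18 reads): AATAAAtcttttaaaaaattgacttgtttc
RAD51C (+ strand, chr17:58735593-58735622, 13 reads): ATTAAAgatttcaattctcgatggtttcaa
RAD51D (− strand, chr17:35092197-35092226, 21 reads): AGTAAAcagctccTATAAAtatgtcacttg
XRCC2 (− strand, chr7:152644527-152644556, 32 reads): TATAAAgatgtcagttttgcgactgagcaa
XRCC3 (− strand, chr14:103697608-103697637, 19 reads): AATAAAtgttcaatggatgcagttccagga
AATAAA opened the sequence at BRCA1, BARD1, PALB2, BRCA2 and XRCC3, and other hexamers of the 12 opened it at RAD51C, RAD51D and XRCC2, where AATAAA stood further upstream, 34, 36 and 78 bases before the edge. The edge of the peak lay 1 bp past the annotated end at BRCA1, 10 bp past it at BRCA2 and 245 bp past it at XRCC2.

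The intronic peaks were of several kinds, which are shown for 6 genes by the 100 bases around the edge of the tallest one whose summit lay under genes of 1 strand, with the tallest of BRCA1 inside its canonical transcript added. The first 60 bases end at the 3′ edge of the peak, 40 bases follow it, and capitals mark the hexamers found.
BRCA1, upstream of the canonical start (chr17:43162167-43162266, 40 reads): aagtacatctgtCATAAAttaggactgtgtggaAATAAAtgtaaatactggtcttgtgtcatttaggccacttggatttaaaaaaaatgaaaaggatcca
BRCA1, intron 2 (chr17:43123330-43123429, 23 reads): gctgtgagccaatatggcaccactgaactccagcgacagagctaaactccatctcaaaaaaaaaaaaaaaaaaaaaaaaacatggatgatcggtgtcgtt
BARD1, intron 7 (chr2:214751123-214751222, 19 reads): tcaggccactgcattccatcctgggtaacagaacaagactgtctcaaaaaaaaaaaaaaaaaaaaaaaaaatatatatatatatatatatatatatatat
PALB2, intron 1 (chr16:23639845-23639944, 24 reads): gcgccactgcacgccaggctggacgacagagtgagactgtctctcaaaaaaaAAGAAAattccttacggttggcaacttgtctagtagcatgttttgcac
BRCA2, intron 2 (chr13:32318768-32318867, 14 reads): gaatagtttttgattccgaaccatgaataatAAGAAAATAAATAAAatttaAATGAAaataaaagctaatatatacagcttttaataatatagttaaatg
RAD51B, intron 7 (chr14:68247208-68247307, 20 reads): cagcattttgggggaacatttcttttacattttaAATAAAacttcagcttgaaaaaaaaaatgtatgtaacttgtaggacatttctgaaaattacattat
RAD51C, intron 5 (chr17:58712339-58712438, 15 reads): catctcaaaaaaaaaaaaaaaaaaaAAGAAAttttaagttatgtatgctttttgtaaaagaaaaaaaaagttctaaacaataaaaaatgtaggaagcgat
The upstream BRCA1 peak and the RAD51B peak carried AATAAA at 27 and 26 bases before the edge, the spacing seen at the canonical ends of BRCA1, BARD1 and PALB2. The RAD51B edge, however, also lay in a short genomic run of A. The BRCA1 intron 2 and BARD1 peaks ran into a longer genomic run of A with no hexamer in the bases shown. BARD1 had AGTAAA 84 bases before the edge. The BARD1 peak shown was chosen by −log10 q over another of 19 reads in intron 1, which had AATAGA 19 bases before the edge and at most 10 A of 25. XRCC3 has no sequence here, because its intronic peak lay under a gene of the other strand.

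Taken over all 9 genes, introns held most of the peaks. They held 104 of 152 peaks, 68.4% (95% Wilson interval 60.6 to 75.3), beside 64.0% over all protein-coding genes. Transcript ends, meaning 200 bp upstream to 600 bp downstream of any annotated end of the gene, held 27 peaks or 17.8% (12.5 to 24.6), beside 20.2%. Exons outside these windows held 16 and the 4000 bp past the genes held 5. Both intervals cover the share of all protein-coding genes. RAD51B alone supplied 40 of the 104 intronic peaks, and without it the intronic share was 57.1% (47.9 to 65.9). The intervals cover counting error only, and peaks of 1 gene share its annotation and sequence.

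**Figure D1:**
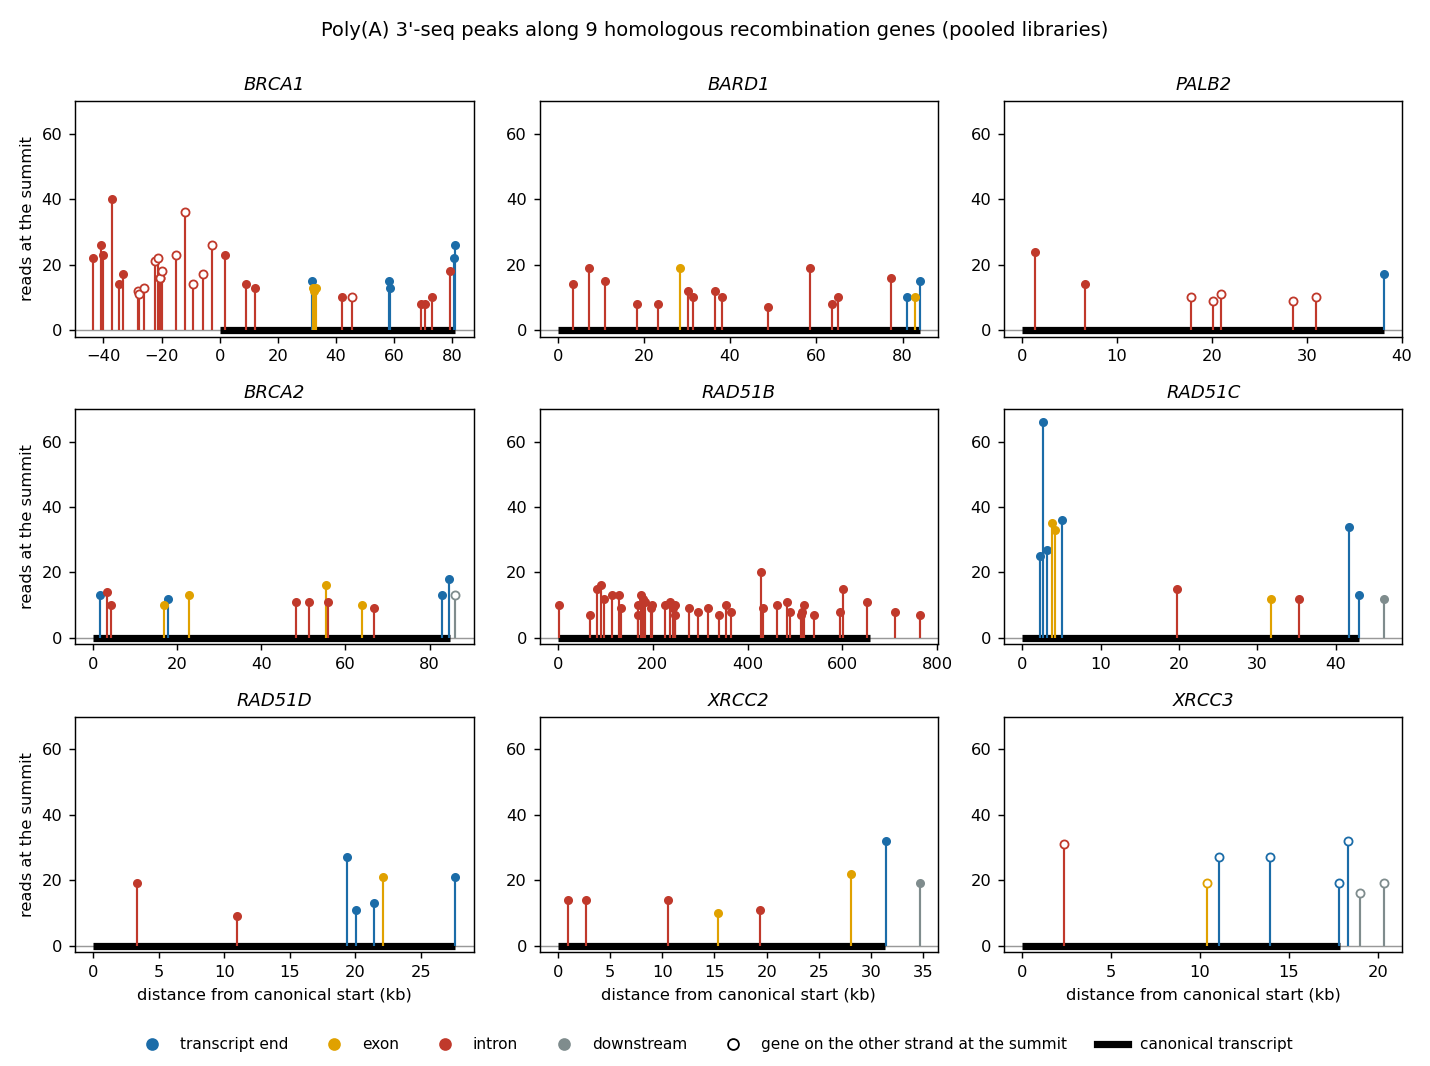
Peaks with −log10 q of at least 5 along each gene: distance of the summit from the start of the canonical transcript in kb (x) against reads at the summit (y) in the pooled libraries, coloured by class, with open circles where a gene of the other strand covers the summit. BRCA1 has 19 intronic peaks left of its canonical start, RAD51B has 40 intronic peaks and none of another class, and the tallest peak of all, 66 reads in RAD51C, lies close to the start of the gene.

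BRCA1 (ENSG00000012048.25, GRCh38 chr17:43044295-43170245, − strand) had 36 peaks, the most after RAD51B, and 28 of them were intronic. The 28 held between 8 and 40 reads with a median of 16.5. Its tallest intronic peak, of 40 reads, exceeded the 26 reads of its tallest transcript-end peak. Of the 28, however, only 9 lay inside the canonical transcript of 81.1 kb and 23 exons. The other 19 lay upstream of its start, in a stretch that enters the gene body through 1 of its 40 annotated transcripts, the only one to start over 5 kb upstream of the canonical start. A gene of the opposite strand, NBR2, covered 13 of these 19 summits, and another gene of the same strand covered the remaining 6. The list has no strand, so peaks there could not be told apart between BRCA1 and these neighbours.

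Inside the canonical transcript of BRCA1 the tallest intronic peak held 23 reads, in intron 2, and 3 of the 9 lay in intron 19 with 8, 8 and 10 reads. Introns 3, 11, 12 and 22 held 1 peak each and intron 2 held 2. Of the 8 under genes of 1 strand, only the peak in intron 3 had a hexamer, AAGAAA 43 bases before the edge. Up to 21 A of 25 followed the edge of the tallest, and 20, 17 and 20 followed those in intron 19. With the upstream stretch included, 5 of 14 intronic peaks under genes of 1 strand had a hexamer, beside 57.7% over all protein-coding genes. The large exon 10, which codes for the middle of the protein, carried 4 peaks of 15, 13, 12 and 13 reads. One of these counts as a transcript end, because a transcript annotated for nonsense-mediated decay ends 449 bp before its edge. Another pair of transcript-end peaks, of 15 and 13 reads, lay in intron 16 at the end of a retained-intron transcript. The last exon had a second peak of 22 reads, 7 bp short of a further annotated coding end, with no hexamer before it.

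BARD1 (ENSG00000138376.11, chr2:214725646-214809683, − strand) had 18 peaks, of which 14 were intronic, 2 exonic and 2 at transcript ends. No other gene overlaps its intronic summits. The 14 held between 7 and 19 reads with a median of 11, and the tallest, of 19 reads in intron 7, exceeded the 15 reads at the canonical end. They were spread over introns 1, 3, 4, 6, 7 and 9, with 3 in intron 1 and 4 in intron 4. A second intronic peak of 19 reads lay in intron 1, 7.16 kb from the start, where 6.78% of the coding sequence precedes it. Hexamers stood before 9 of the 14 peaks, and 6 of these 9 had one at most 40 bases from the edge. The coding exon 4 held a peak of 19 reads as well.

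PALB2 (ENSG00000083093.11, chr16:23603160-23641321, − strand) had 8 peaks, 7 of them intronic and 1 at the transcript end. The tallest lay in intron 1, 1.34 kb from the start, with 24 reads against 17 at the canonical end. The local background was higher there too, 2.23 reads against 0.51, and the fold enrichment over it was lower, 7.74 against 11.92. A peak of 14 reads in intron 4 followed, where AATAAA was found 5 times between 7 and 23 bases before the edge. The bases after that edge were A-rich as well, with up to 19 A of 25. The other 5, in introns 8, 10 and 11, held 9 to 11 reads, and all 5 lay under a gene of the other strand.

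BRCA2 (ENSG00000139618.18, chr13:32315086-32400268, + strand) had 15 peaks, of which 6 were intronic, 4 exonic, 4 at transcript ends and 1 downstream. Unlike those of BRCA1, BARD1 and PALB2, its tallest transcript-end peak, 18 reads at the canonical end, exceeded its tallest intronic peak of 14 reads. The intronic peaks lay in introns 2, 3, 18, 20 and 24, held 9 to 14 reads, and all 6 had a hexamer. The 4 exonic peaks lay in the coding exons 10, 11, 20 and 22 and held 10, 13, 16 and 10 reads. The downstream peak, of 13 reads, lay under N4BP2L1, a gene of the other strand.

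Among the related genes RAD51B, RAD51C, RAD51D, XRCC2 and XRCC3, the first stood apart. It (ENSG00000182185.19, chr14:67819779-68730218, + strand) spans 910.4 kb and had 40 peaks, all intronic, with no peak at any of its 22 annotated ends. The background for a transcript-end peak is 64.1% of all protein-coding genes, and the other 8 genes had one. The 40 held between 7 and 20 reads with a median of 10, and 27 of them held 10 reads or fewer. Intron 7, of 404.7 kb, held 28 of the 38 that lay in the canonical transcript, 73.7%, and it makes up 61.6% of the intronic bases. A further 38 peaks of RAD51B fell below the cutoff, of which 33 were intronic and 5 lay at annotated ends with 4 to 6 reads. Among these was a peak of 5 reads past the canonical end with AATAAA 18 bases before its edge.

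RAD51C (ENSG00000108384.16, chr17:58692573-58735611, + strand) had 12 peaks and the largest number at transcript ends, 6, beside 3 exonic, 2 intronic and 1 downstream. The tallest of all 152 peaks, of 66 reads, lay in intron 2 of the canonical transcript near the end of a short annotated coding transcript, with 35.8% of the coding sequence upstream. It was 1 of 6 peaks within the first 6 kb, which held 25, 66, 27, 35, 33 and 36 reads. All were above the 13 reads at the canonical end, but the local background was higher too, 6.6 to 6.76 reads against 1.04. Set against this background, only the peak of 66 reads, with a fold enrichment of 8.73, exceeded the canonical end with 6.86. The others had 3.42 to 4.77. The only hexamer of the peak of 66 reads, GATAAA, stood 70 bases before the edge. Its last 30 bases are shown because, unlike those at the canonical end, they hold none.
RAD51C, short transcript (+ strand, chr17:58695403-58695432, 66 reads): ttttgcaaattgtactgcagtcataaggtt
The other 5 transcript-end peaks included 34 reads in the last exon and 36 reads in intron 3, where AATAAA stood 30 bases before the edge. The 2 intronic peaks lay in introns 5 and 7 with 15 and 12 reads.

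RAD51D (ENSG00000185379.21, chr17:35092221-35121522, − strand) had 7 peaks, of which 4 were at transcript ends, 1 exonic and 2 intronic. Another annotated gene of the same strand covered all 7 summits, so their assignment to RAD51D is uncertain. The tallest, of 27 reads, lay 1 bp before the end of a coding transcript that stops upstream of the canonical end, and the canonical end itself had 21 reads. Its last bases hold a pair of overlapping hexamers.
RAD51D, upstream end (− strand, chr17:35100375-35100404, 27 reads): AATATAAAaaggcaattccccgagccctag
The intronic peaks both lay in intron 3, with 19 and 9 reads. The smaller one had 23 A among 25 bases at its edge.

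XRCC2 (ENSG00000196584.4, chr7:152644776-152676193, − strand) has 3 canonical exons and had 8 peaks, with 32 reads at the transcript end. Of its 4 intronic peaks, 3 lay in intron 1 with 14 reads each and 1 in intron 2 with 11 reads. The last exon held a further peak of 22 reads, and 19 reads were found 3367 bp past the canonical end.

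XRCC3 (ENSG00000126215.14, chr14:103697609-103715504, − strand) had 8 peaks, all 8 with KLC1, a gene of the other strand, at the summit. Of these 4 were at transcript ends, with 27, 27, 19 and 32 reads. The tallest, of 32 reads, ended 565 bp past the annotated end, and the last 30 bases before its edge hold no hexamer.
XRCC3, tallest transcript-end peak (− strand, chr14:103697044-103697073, 32 reads): cgattagaaaatgagacagcttaaagacag
The only intronic peak lay in intron 1, before the coding sequence begins, with 31 reads and a width of 1075 bp, the widest of the 152. Which of these belong to XRCC3 and which to KLC1 cannot be told apart.

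**Figure D2:**
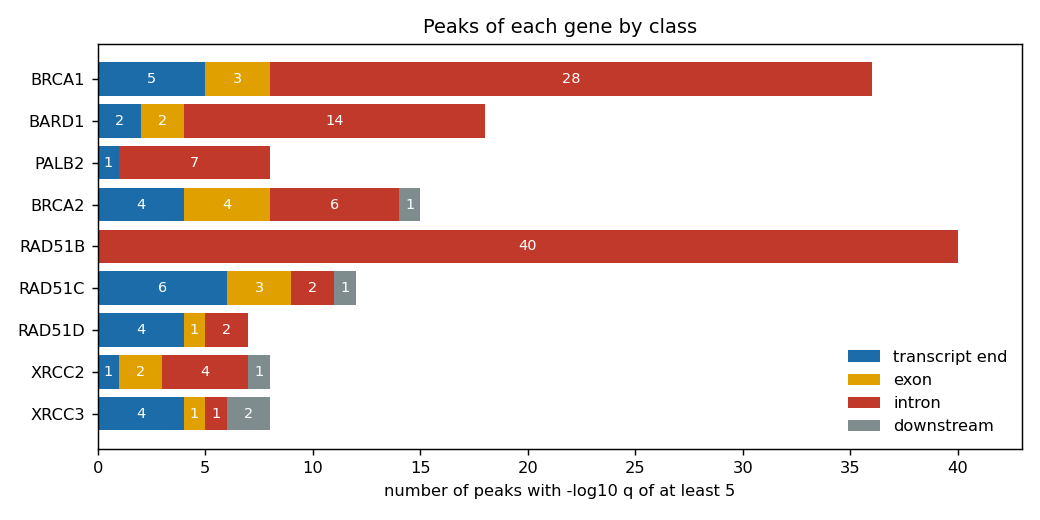
Number of peaks with −log10 q of at least 5 in each gene (x), split by class. Intronic peaks make up 28 of 36 in BRCA1, 14 of 18 in BARD1, 7 of 8 in PALB2 and 40 of 40 in RAD51B, whereas RAD51C, RAD51D and XRCC3 have more peaks at transcript ends than in introns.

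In 3 of the 8 genes with both kinds of peak, BRCA1, BARD1 and PALB2, the tallest intronic peak exceeded the tallest transcript-end peak. Over all detected protein-coding genes with an intronic peak, 34.7% did so, a like share. The order is by reads and is not set against the local background. By fold enrichment over that background, the same 2 peaks had 9.90 against 9.68 in BRCA1 and 14.49 against 9.82 in BARD1. In PALB2 the order reversed, with 7.74 for the intronic peak and 11.92 for the transcript end. In BRCA2, RAD51C, RAD51D, XRCC2 and XRCC3 the transcript end was taller, from 32 against 31 reads in XRCC3 to 66 against 15 in RAD51C. With the canonical transcript as the gene body, BRCA1 left this group, since its tallest intronic peak there held 23 reads against 26. With only the canonical end as transcript end, the count was 4 of 8, since RAD51C joined it with 13 reads at its canonical end and 15 in its tallest intronic peak of the main count.

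To allow for length, each gene was set beside the 200 detected genes nearest to it in length, detected meaning at least 1 transcript-end peak. BRCA1 had 28 against a median of 10, and 5 of the 200 had as many. BARD1 had 14 against 8, and PALB2 had 7 against 4, with 25 and 28 of the 200 having as many or more. BRCA2 had 6 against 8 and RAD51C 2 against 4. RAD51D with 2 against 3, XRCC2 with 4 against 3 and XRCC3 with 1 against 2 lay close to their medians. RAD51B had 40 against 35, inside the quartiles of its neighbours (12.75 and 61), which measured from 514 to 1553 kb. RAD51B itself was not detected in this sense, and of the 1804 undetected genes of any length with an intronic peak, 8, itself included, had as many. Counted only inside canonical transcripts, BRCA1 had 9 against a median of 8, with 90 of 200 having as many or more, while BARD1 (14 against 9) and PALB2 (7 against 4) stayed above the upper quartile. Counted only where genes lay on 1 strand, PALB2 had 2 against a median of 3, since 5 of its 7 lay under a gene of the other strand, BRCA1 had 14 against 10, with 60 of 200 having as many or more, and BARD1 had 14 against 7. These ranks carry no test.

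**Figure D3:**
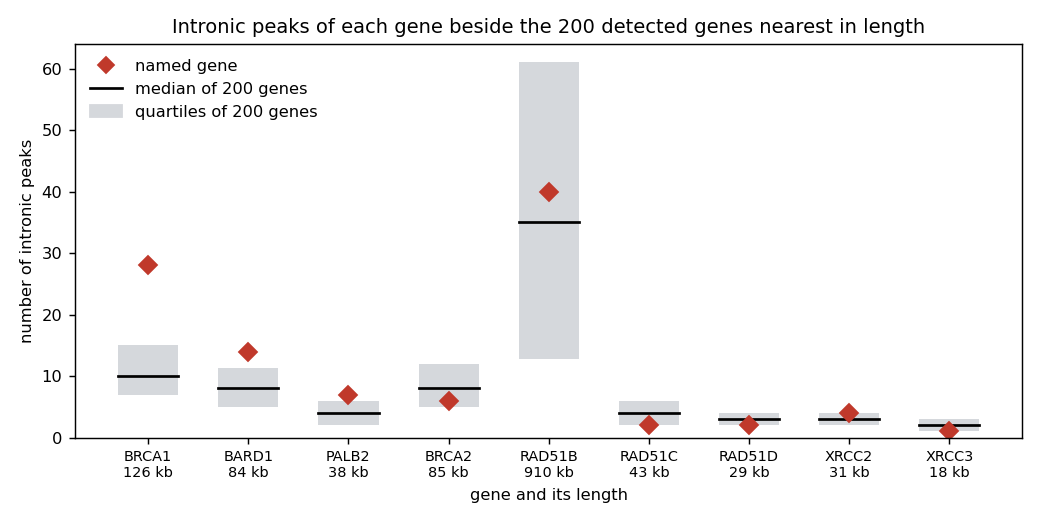
Number of intronic peaks (y) of each gene (diamond) beside the median (line) and the range between the quartiles (grey) of the 200 detected protein-coding genes nearest in length. BRCA1 (28), BARD1 (14) and PALB2 (7) lie above the grey range, and RAD51C (2), RAD51D (2) and XRCC3 (1) lie at its lower edge.

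Per length of intron, the 9 genes together had 8.17 intronic peaks per 100 kb, beside 8.62 for all detected protein-coding genes. This total is set by the 903.0 kb of intron in RAD51B, which had 4.43 per 100 kb. The other 8 genes together had 17.3 per 100 kb. The medians of their 200 neighbours in length lay between 8.67 and 13.06, and BRCA2, RAD51C, RAD51D and XRCC3 were below their own medians. BRCA1 led with 25.1, followed by PALB2 with 22.8, BARD1 with 18.3 and XRCC2 with 16.02, and RAD51C had 7.51. The BRCA1 value includes the 19 upstream peaks. Inside canonical transcripts BRCA1 had 12.2, below PALB2 with 20.5, BARD1 with 17.8, XRCC2 with 15.04 and XRCC3 with 13.1, from 2 peaks. A gene of the other strand covered 14 of the 28 BRCA1 peaks, 5 of the 7 of PALB2 and every XRCC3 peak.

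The hexamers and A stretches were read where all genes at the summit lay on the strand of the named gene, which held for 84 of the 104 intronic peaks. A hexamer stood in the 100 bases before the edge of 47, or 56.0% (45.3 to 66.1), beside 57.7% over all protein-coding genes. On the opposite strand of the same places the share was 34.5% (25.2 to 45.2). At least 22 A among 25 bases in the 50 bp downstream of the edge was met by 7 peaks or 8.33% (4.09 to 16.2), beside 5.76%. Of these 7, RAD51B held 6 and RAD51D 1. The study discarded peaks that had such a stretch and no hexamer. None of the 7 had a hexamer, so the list used here still holds peaks that this rule would remove. With 18 A of 25 the count was 37 or 44.05% (33.9 to 54.7), above the 28.2% of all protein-coding genes. RAD51B gave 25 of the 37, 62.5% of its own peaks (47.0 to 75.8), and the other 8 genes 12 of 44, 27.3% (16.4 to 41.9), close to the background. A hexamer without such an A stretch was found at 13 of the 40 RAD51B peaks, 32.5% (20.08 to 47.98), and at 22 of 44 in the other genes, 50% (35.8 to 64.2). Both intervals cover the 47.92% of all protein-coding genes. Stretches were sought only after the edge, so a run of A before it was not counted. The PALB2 peak of 24 reads in intron 1 is among the 22, and its only hexamer, AAGAAA, ends a run of A.

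At transcript ends the 23 peaks under genes of 1 strand had a hexamer in 13, 56.5% (36.8 to 74.4). This interval lay below the 80.7% of all protein-coding genes. The 10 without one were at shorter annotated transcripts of BRCA1, BRCA2, BARD1, RAD51C and RAD51D and at the second end of BRCA1, and none was at a canonical end. At least 18 A of 25 followed 3 of the 23, 13.0% (4.5 to 32.1), beside 6.98% over all protein-coding genes. Neither a hexamer nor such a stretch was found at 8 of the 23, 34.8% (18.8 to 55.1), beside 15.05%. Whether these 10 are true ends was not tested.

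**Figure D4:**
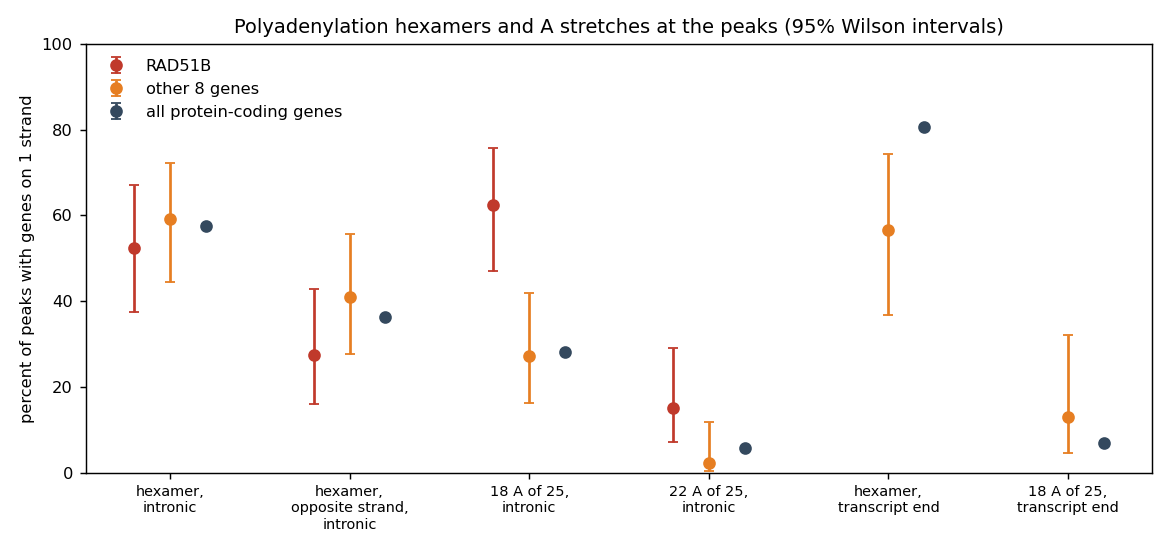
Percent of peaks (y) with a hexamer in the 100 bases before the edge or with at least 18 or 22 A among 25 bases in the 50 bp after it, for RAD51B, the other 8 genes and all protein-coding genes, with 95% Wilson intervals. RAD51B lies above the background for 18 A of 25 (62.5% against 28.2%), and the other genes lie below it for hexamers at transcript ends (56.5% against 80.7%).

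Several of the sequences shown hold the letters TCTCAAAA just before the run of A, with which many copies of the Alu repeat, a common primate transposon, pass into their A-rich tail. These letters were searched after the sequences had been seen, and the peaks that prompted the search are counted in the share below. That share is therefore not independent of the choice of letters. On the strand of the gene, they were found in the 100 bases around 23 of the 84 intronic peaks, 27.4% (19.0 to 37.7), beside 17.2% of the intronic peaks of all protein-coding genes. On the opposite strand they were found in 0 of 84, which allows a share of up to 3.57% at 3 counts of the total, beside 0.648%. RAD51B held 12 of the 23, and 11 of its 12 also had 18 A of 25.

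Peaks also lay in coding exons. There were 13 of them in the canonical coding sequence of 5 genes, 6 in BRCA2, 4 in BRCA1 and 1 each in BARD1, RAD51C and XRCC2, with 9 to 18 A of 25 at the edge and a hexamer before 8. Of the 45 intronic peaks inside the canonical transcripts of the 8 genes other than RAD51B, 19 had less than 50% of the coding sequence upstream and 26 had more. Some of the 45 lay under genes of the other strand. Neither these splits nor the coding-exon counts have a like share over all protein-coding genes here, so they are description only.

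Of 27 further genes of the pathway, all 27 had a transcript-end peak, with 12 to 74 reads at the tallest, and 24 had an intronic peak. These genes held 201 intronic peaks among 320, 62.8%, and 10.1 per 100 kb of intron. The most were in BRIP1, a helicase that binds BRCA1, with 27, where the tallest intronic peak held 28 reads against 25 at the transcript end. BABAM2, a subunit of the BRCA1-A complex, had 21, with 13 reads against 25. RAD54B, a motor protein of strand exchange, and UIMC1, the ubiquitin reader of the BRCA1-A complex, had 15 each. The tallest intronic peak exceeded the transcript end in 5 of the 24, and hexamers stood before 62.1% of the intronic peaks on 1 strand.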

How the data were processed

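Trimmed reads were mapped by the authors to GRCh38 (STAR 2.5.1b, up to 20 placements kept), and peaks were called on merged reads with MACS2 2.1.1, with reads extended to 100 bp and no control. The deposited list gives each peak a fold enrichment (a ratio), −log10 p, −log10 q and a summit offset. The reads at the summit were solved from fold and −log10 p, exactly for 100% of 17353 simulated peaks, with a largest misfit of 0.000172 in the real list. No peak exceeded 200 reads, so repeated start positions appear to have been counted once. Classes and strands came from GENCODE 44 (the study used 27) and refer to each gene's own transcripts. Depth per library is unknown. Python 3.11.15, pandas 2.3.3 and scipy 1.17.1 were used. Shares have 95% Wilson intervals, and no test was possible. Named genes were the 9, and of the 27 others those with the most intronic peaks or no transcript-end peak (none). Some items are not reported here. Members and lists were chosen with earlier results of these data known.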

Additional observations from a re-analysis of the deposited data

How the results depend on the processing

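No paired analysis was possible because replicates were pooled before peaks were called. Of 51 recomputed values, 34 stayed within the interval of the value reported or within 1.5 times the count. A cutoff of 20 on −log10 q left 9 peaks, 44.4% intronic and 55.6% at transcript ends, with 0.00314 intronic peaks per kb, hexamers at 100% and A stretches at 0% of the 3 intronic peaks on 1 strand, and no gene kept both kinds of peak. Without a cutoff there were 0.119 intronic peaks per kb. The transcript-end share was 11.8% with windows of 100 bp, 11.2% with ends of coding transcripts and 5.92% with canonical ends. Hexamers were found at 28.6% with AATAAA and ATTAAA only (34.4% over all protein-coding genes) and at 42.9% in 40 bases (45.1%). A stretches of 18 of 25 were at 44.05%. Among alternatives chosen after seeing the data, leaving out RAD51B gave an intronic share of 57.1%, A stretches at 2.27% and 0.173 peaks per kb, and keeping only peaks with genes on 1 strand gave 0.066 per kb over the same bases. Heights of at most 200 reads limit how tall peaks compare.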
